A study of Mus musculus with 4 samples.

Results

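The genes described here are 36 mouse genes of the thioredoxin, peroxiredoxin and glutathione systems, taken by name. They include relatives of nucleoredoxin (gene Nxn), other antioxidant enzymes, and the regulators Txnip, Nfe2l2 and Keap1. They were looked up by gene name and transcript accession among 41174 gene probes, where Glrx3 stands under its older symbol Txnl2 on 2 probes. All 36 genes had a probe, 61 member probes in all, and 56 of these passed the filter on dim spots. The brightest probe of each gene was used, which left 34 members among the 17161 genes tested. Glrx5, a mitochondrial glutaredoxin, dropped out because its probe carried an outlier mark on 1 array, and Sod3, the secreted superoxide dismutase, was not well above background in any channel. No member was saturated.

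The study compared Nxn-null embryos, labelled NRX -/- and in the titles KD, with wild-type embryos, labelled NRX +/+, at the embryonic days named E9.5 and E11.5. All groups were untreated C57BL/6J mice, and total RNA of embryos was amplified and hybridised to 4 two-colour arrays. A stage was covered by 2 arrays of opposite dye orientation, with Nxn-null RNA in Cy5 on replicate 1 and in Cy3 on replicate 2. The number of embryos, any pooling and the way Nxn was disrupted are not given in the sources used here. No label names separate extracts for the arrays of a stage, so p-values measure the spread between these arrays or stages, which may be technical. In RNA of embryos, fewer cells of a type and less RNA per cell cannot be told apart.

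Thioredoxins and glutaredoxins are small proteins that reduce disulfide bonds in other proteins. Thioredoxin is recharged by thioredoxin reductase with NADPH, and glutaredoxin by glutathione, which glutathione reductase recharges with NADPH. Peroxiredoxins and glutathione peroxidases use these carriers to reduce peroxides, and nucleoredoxin is a member of the thioredoxin family known to bind Dishevelled, a component of Wnt signalling. The comparisons below ask whether these redox genes were at another level where Nxn was low, and how their levels differed between the stages.

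Every array showed less Nxn signal in the Nxn-null channel. Its log2 ratio of Nxn-null over wild type was -1.04 and -0.93 on replicates 1 and 2 at E9.5, then -1.24 and -1.42 at E11.5. The Nxn-null channels thus held 50.4% of the wild-type level at E9.5, then 39.8% at E11.5, and a second, dimmer probe had mean ratios of -0.81 and -1.16. Whether these probes overlap the disrupted sequence is not given, so these values do not show how much intact transcript was left.

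Some facts of the whole series bear on the redox genes. Across all genes, the Pearson correlation between the arrays of a stage was 0.48 at E9.5, then 0.26 at E11.5, as a description in which genes are not independent. Markers of heart muscle (9 of 10 listed), neurons (10 of 10) and neural progenitors (6 of 6) were measured in the embryo RNA, but marker levels differed between the genotypes. Of 16 markers of primitive red cells, all well above background on every array, 15 were lower at each stage. Their summed level was 271800 to 308700 in Nxn-null against 463200 to 539900 in wild-type channels at E9.5, then 332700 to 434800 against 840300 to 918600 at E11.5. At E9.5, 11 of 12 markers of yolk sac and visceral endoderm were lower, with summed levels of 15800 to 19440 against 167100 to 167800, as were 9 of 9 tested heart muscle markers, while 7 of 10 neuronal markers were higher, as were both tested markers of placenta and decidua (6 listed, median 1.85). At E11.5 the yolk sac sums were 80060 to 80370 against 80560 to 88370, and 4 of the 12 were lower. Most of these E11.5 sums came from Afp (mean log2 level 15.97 in Nxn-null and 16.05 in wild-type channels), so they say little of the other markers. In wild-type channels Cubn and Amn fell from 12.37 and 11.49 at E9.5 to 8.01 and 7.49 at E11.5. Of 4 tested liver markers (5 listed), 1 was lower at E9.5 and 2 at E11.5. At E11.5 the X-linked transcript Xist was well above background in the Nxn-null channels and not in the wild-type channels, and the Y-linked Ddx3y, Eif2s3y and Kdm5d the reverse, so genotype and embryo sex cannot be told apart in any E11.5 ratio. The Y-linked transcripts were above background in no E9.5 channel, so stage and sex cannot be told apart in wild-type levels either.

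The redox genes stood close to equal in both genotypes. At E9.5, 33 of the 34 tested members lay within 1.2-fold of wild type, and at E11.5 it was 32. The exceptions were Gpx3 at E9.5, and Prdx3 and Gpx1 at E11.5, all of them lower in Nxn-null RNA. The ratios of 21 members lay within 0.1 of 0 on the log2 scale at both stages. No member was 2-fold apart at either stage, against 0.839% of all genes at E9.5, then 0.204% at E11.5. The median log2 ratio of the members was 0.02 at E9.5 but -0.02 at E11.5, beside medians of -0.0008 and 0.0072 over all genes. With median centring in place of loess both signs were positive, at 0.07 and 0.12, beside 0.05 and 0.10 over all genes. The median absolute ratio was 0.0538 for members and 0.0935 for all genes at E9.5, then 0.0584 and 0.0642 at E11.5.

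**Figure D1:**
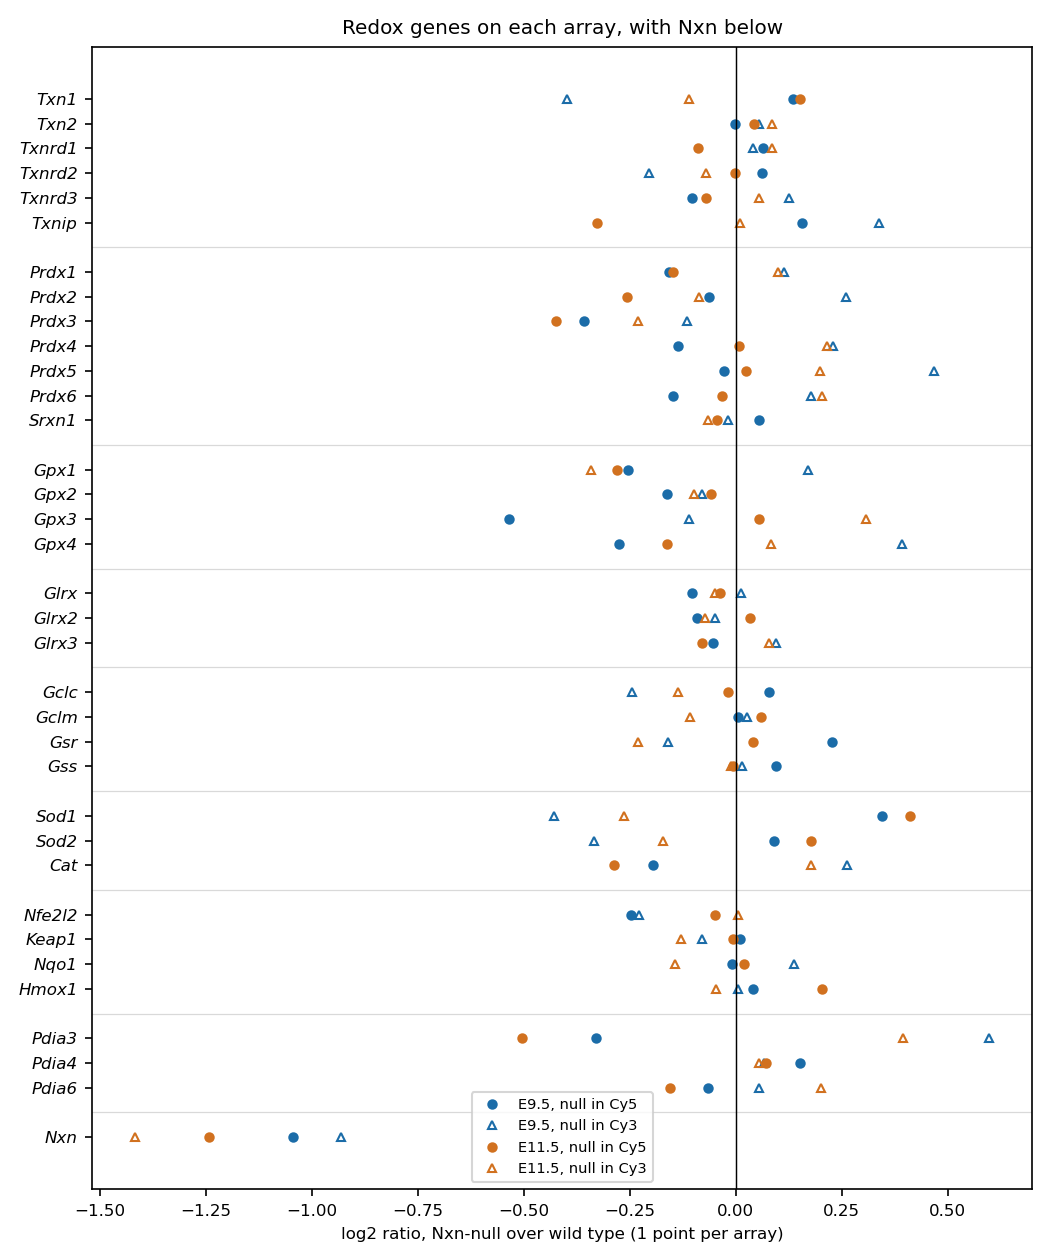
Log2 ratio of Nxn-null over wild type (horizontal axis) for the 34 tested redox genes, ordered by role, and for Nxn in the lowest line, with 1 point per array; circles are arrays with the Nxn-null RNA in Cy5 and triangles those with it in Cy3. Nxn lies between -1.42 and -0.93, whereas Prdx3 and Gpx2 are the members with all 4 points below 0 and Pdia4 the member with all 4 above.

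Few members passed the test at a stage. That test was limma on the 4 arrays with a term for the dye. It asks whether a ratio exceeds the spread between arrays that this term leaves, and compares the hybridised RNAs rather than the genotypes at large. At E9.5, Txnip and Prdx5 were higher at an adjusted p under 0.05, 2 members where 9.88% of all genes were called, and Prdx3, Gpx3 and Nfe2l2 were lower, 3 members where 14.8% of all genes were called. At E11.5 none was higher, against 3.67% of all genes, and Prdx3 and Gpx1 were lower, against 5.64%. These shares of the 34 members are near or below those of all genes. None of these calls remained when the dye term was dropped, with median centring, with the scanner's own log ratio, or when any array was left out.

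A test that takes the stages as replicates called no member and no other gene (0% of 17161, lowest limma adjusted p 0.395). Nxn itself, below 0 on all 4 arrays, was not called in it either (mean -1.16, limma adjusted p = 0.395). A count of 0 in this test therefore does not show that no gene differed. In the same test 1240 genes had an unadjusted p under 0.05, and Prdx3 was the member among them. By direction alone, Pdia4 was higher in Nxn-null on all 4 arrays, where 7.59% of all genes were, and Prdx3 and Gpx2 were lower on all 4, where 10.5% of all genes were. The intervals cover only the array spread left after the dye term, moderated over all genes. Pdia3, with an SD of 0.66 between its E9.5 arrays, had an E9.5 interval of 0.004 to 0.26. The limits therefore do not bound what could be missed without the dye term. The highest upper 95% limit of any member was 0.38 (1.30-fold, Txnip) at E9.5, then 0.31 (1.24-fold, Gpx3) at E11.5. Over both stages the highest was 0.38, again for Txnip. The lowest lower limit was -0.46 at each stage, for Gpx3 at E9.5 and Gpx1 at E11.5. These limits cover the probe used for each gene. A dimmer probe of Glrx2, Gsr, Nfe2l2, Pdia6, Prdx2, Prdx6, Sod1 or Txnrd2 had a mean outside its own gene's interval at a stage at least once, with values given below.

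For many of these genes the ratio followed the dye. The replicates of a stage had opposite signs in 23 of the 34 members at E9.5 and in 19 at E11.5. The fitted dye term was larger than the ratio in 21 members at E9.5, then 19 at E11.5, and its median size was 0.1 in members and 0.0787 in all genes. Pdia3, a protein disulfide isomerase of the endoplasmic reticulum, had ratios of -0.33 and 0.60 at E9.5, then -0.50 and 0.39 at E11.5. Sod1, the cytosolic superoxide dismutase, went the other way, with 0.34 and -0.43 at E9.5, then 0.41 and -0.26 at E11.5. Each followed the dye of the Nxn-null RNA at both stages, and their stage means were small.

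**Figure D2:**
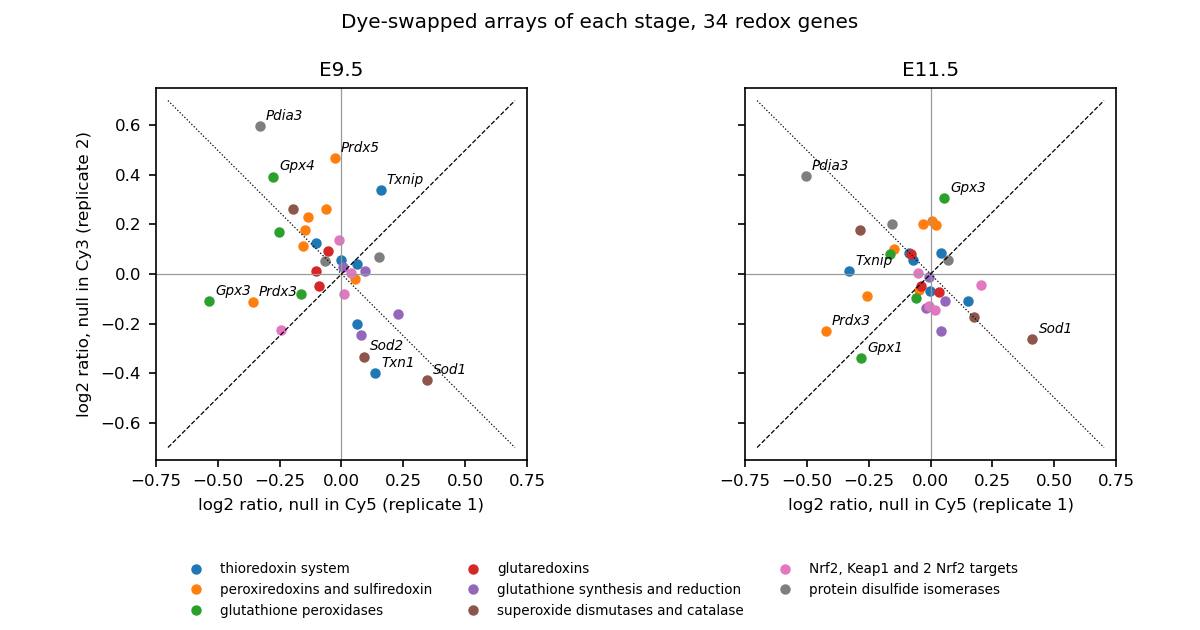
Log2 ratio of Nxn-null over wild type with the Nxn-null RNA in Cy5 (horizontal axis) against that with it in Cy3 (vertical axis) for 34 redox genes at E9.5 and E11.5, coloured by role; the dashed line marks equal ratios and the dotted line opposite ratios. Pdia3 and Sod1 lie along the dotted line at both stages, while Prdx3 at both stages and Gpx1 at E11.5 lie in the lower left.

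Among the genes of the thioredoxin system, Txnip was the member that changed. Txnip encodes the thioredoxin-interacting protein, which binds and inhibits reduced thioredoxin and restrains glucose uptake. Its ratio was 0.16 and 0.34 at E9.5, then -0.33 and 0.01 at E11.5. The E9.5 mean of 0.25 ± 0.13 (SD, n = 2 arrays), or 119% of wild type, passed the test (limma adjusted p = 0.0064, 95% interval 0.12 to 0.38). The E11.5 mean of -0.16 ± 0.24 did not (adjusted p = 0.148). The difference between the stages of -0.41 ± 0.09 (SE) was itself called (adjusted p = 0.00345). A dimmer probe gave 0.19 at E9.5, then -0.10 at E11.5, in the same directions.

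The carriers and reductases showed no such difference. Txn1, the cytosolic thioredoxin, had ratios of 0.14 and -0.40 at E9.5, then 0.15 and -0.11 at E11.5, with signs that followed the dye. Txnrd2, the mitochondrial thioredoxin reductase, had 0.06 and -0.20 at E9.5 (mean -0.07 ± 0.19, limma adjusted p = 0.463) and 0.00 and -0.07 at E11.5 (mean -0.04 ± 0.05, adjusted p = 0.829). That probe matched a separate cDNA record. The 2 dimmer Txnrd2 probes, matched to the reference transcript, stood at 0.11 and 0.15 at E9.5, so the sign depended on the probe. Txn2, the mitochondrial thioredoxin, Txnrd1, the cytosolic reductase, and Txnrd3, a reductase that also has a glutaredoxin domain, were not called at either stage. Over the 6 genes, the stage means ran from -0.13 to 0.25 at E9.5 and from -0.16 to 0.06 at E11.5.

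Prdx3 was lower at both stages. It encodes the mitochondrial peroxiredoxin, which removes hydrogen peroxide there with electrons from Txn2. Its ratio was -0.36 and -0.11 at E9.5, then -0.42 and -0.23 at E11.5, so the Nxn-null channel was below the wild-type channel on all 4 arrays. The means were -0.24 ± 0.17 at E9.5 (84.9% of wild type, limma adjusted p = 0.00798) and -0.33 ± 0.14 at E11.5 (79.7%, adjusted p = 0.00114). The difference between the stages was not called (adjusted p = 0.575). Over both stages the mean was -0.28 ± 0.06 (SE, n = 2 stages), with a 95% interval of -0.46 to -0.10 and an adjusted p of 0.580 over all genes. With median centring the E11.5 mean was -0.18.

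Prdx5, a peroxiredoxin of mitochondria, peroxisomes and cytosol, had ratios of -0.03 and 0.47 at E9.5, then 0.02 and 0.20 at E11.5. Its E9.5 mean of 0.22 ± 0.35 was called (limma adjusted p = 0.0205), although its arrays disagreed in sign, and it was lost with a normexp offset of 10 (adjusted p = 0.0616) and without the filter on dim probes (0.0687). Without E9.5 replicate 2 the value is -0.03, so the call rests on that array. At E11.5 its mean was 0.11 ± 0.12 (adjusted p = 0.390).

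Prdx2 encodes the cytosolic peroxiredoxin that is abundant in red cells. Its ratio was -0.06 and 0.26 at E9.5, then -0.26 and -0.09 at E11.5, and neither mean was called (0.10 ± 0.23, limma adjusted p = 0.277, and -0.17 ± 0.12, adjusted p = 0.108). The difference between the stages was called, at -0.27 ± 0.09 (SE, adjusted p = 0.0494). The probe was printed in 10 spots on each array, and these differed with an SD of 0.03 to 0.05, far less than the arrays did. The difference was not called with median centring (-0.09), with a normexp offset of 10 (adjusted p = 0.110), without the filter on dim probes (0.126) or with trended, robust moderation (0.0916), among 10 of 12 alternatives that lost it. Both dimmer probes had 0.08 at E9.5, then -0.34 and -0.35 at E11.5. The median ratio of the 16 red cell markers was -0.51 at E9.5, then -0.81 at E11.5, and its part in the Prdx2 ratio was not tested.

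The other peroxiredoxins were not called at a stage. Prdx1, a cytosolic peroxiredoxin, had stage means of -0.02 and -0.02, with replicates of opposite sign. Prdx4, the peroxiredoxin of the endoplasmic reticulum, is X-linked, and its means were 0.05 ± 0.26 and 0.11 ± 0.15. The part of the Xist difference in the Prdx4 ratio was not tested. Prdx6, a peroxiredoxin that also acts as a phospholipase, had -0.15 and 0.18 at E9.5 (mean 0.01 ± 0.23, limma adjusted p = 0.894) and -0.03 and 0.20 at E11.5 (mean 0.09 ± 0.17, adjusted p = 0.504).

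Probes within Prdx6 and Srxn1 differed. For Prdx6, 3 further probes had E9.5 means of 0.17, -0.03 and -0.37, and the lowest of these matched a separate cDNA record rather than the reference transcript. Srxn1 encodes sulfiredoxin, which repairs overoxidised peroxiredoxins. Its ratio was 0.06 and -0.02 at E9.5 (mean 0.02 ± 0.05, limma adjusted p = 0.864) and -0.04 and -0.07 at E11.5 (mean -0.05 ± 0.01, adjusted p = 0.702). Its 2 dimmer probes had -0.05 and -0.07 at E9.5, all near 0.

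Among the members, Gpx3 and Gpx1 were the glutathione peroxidases that differed, each at 1 stage. Gpx6, from the related lists, was also called lower at E9.5, but in only 5 of 11 alternatives. Its value ran from -1.72 to -0.33 over them, and from -0.43 to -0.33 with an array left out. Gpx3 encodes the secreted enzyme found in plasma. Its ratio was -0.53 and -0.11 at E9.5, then 0.05 and 0.31 at E11.5. At E9.5 both arrays were below 0 (mean -0.32 ± 0.30, 80.0% of wild type, limma adjusted p = 7.17e-04). At E11.5 both were above 0, without passing the test (mean 0.18 ± 0.18, adjusted p = 0.0894). The difference of 0.50 ± 0.09 (SE) between the stages was called (adjusted p = 4.75e-04), and the arrays of the stages did not overlap. The yolk sac markers had medians of -3.04 at E9.5, then -0.09 at E11.5, and their part in the Gpx3 ratio was not tested.

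Gpx1, the cytosolic and mitochondrial glutathione peroxidase found in most cells including red cells, had ratios of -0.25 and 0.17 at E9.5, then -0.28 and -0.34 at E11.5. The E9.5 mean was -0.04 ± 0.30 (limma adjusted p = 0.731). The E11.5 mean of -0.31 ± 0.04, or 80.7% of wild type, was called (adjusted p = 0.0077). The difference between the stages was -0.27 ± 0.10 (SE) and was not called (adjusted p = 0.0985), so the E11.5 result is not shown to be particular to that stage. With median centring the E11.5 mean was -0.08, and without the filter on dim probes its adjusted p was 0.0588. Red cell markers, given above, were lower at both stages, and their part in the Gpx1 ratio was not tested.

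Gpx2, the peroxidase known from gut epithelium, had ratios of -0.16, -0.08, -0.06 and -0.10 on the 4 arrays, all small and all below 0, and was not called (limma adjusted p = 0.179 and 0.561). Gpx4, which reduces lipid peroxides in membranes, had -0.28 and 0.39 at E9.5, then -0.16 and 0.08 at E11.5, with signs that followed the dye.

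No glutaredoxin was called. These proteins use glutathione to reduce disulfides or to carry iron-sulfur clusters. Glrx, the cytosolic form, had stage means of -0.04 and -0.04. Glrx2, the mitochondrial form, had -0.09 and -0.05 at E9.5 (mean -0.07 ± 0.03, limma adjusted p = 0.461) and 0.03 and -0.07 at E11.5 (mean -0.02 ± 0.08, adjusted p = 0.914), and its dimmer probe had 0.13 at E9.5. Glrx3, a cytosolic iron-sulfur carrier, had -0.05 and 0.09 at E9.5 (mean 0.02 ± 0.10, adjusted p = 0.849) and -0.08 and 0.08 at E11.5 (SD 0.11, adjusted p = 1), with -0.03 and 0.05 from its dimmer probe. The untested Glrx5 probe had ratios of -0.12 at E9.5 replicate 2 and of 0.04 and -0.24 at E11.5.

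The genes that make and recharge glutathione were level as well. Gclc and Gclm encode the subunits of the rate-limiting ligase, Gss the synthetase that adds glycine, and Gsr the reductase. Over these 4 genes the stage means ran from -0.08 to 0.05 at E9.5 and from -0.09 to -0.01 at E11.5, and none was called. Gsr was the member with the widest replicates here, at 0.23 and -0.16 at E9.5, then 0.04 and -0.23 at E11.5. Of its 2 dimmer probes, 1 had a mean of 0.24 at E9.5.

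The superoxide dismutases and catalase were not called. Sod1, whose ratios are given above, had means of -0.04 ± 0.55 (limma adjusted p = 0.674) and 0.07 ± 0.48 (adjusted p = 0.578). Another Sod1 probe, matched to a separate cDNA record, had -0.53 and -0.36 at E9.5, then -0.22 and 0.02 at E11.5, so the probes disagreed in sign at E11.5. Sod2, the mitochondrial dismutase, had 0.09 and -0.33 at E9.5, then 0.18 and -0.17 at E11.5. Cat, the catalase of peroxisomes, had -0.20 and 0.26, and -0.29 and 0.18. The arrays of a stage thus fell on opposite sides of 0 for all 3 genes.

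Nfe2l2 was lower at E9.5. It encodes Nrf2, the transcription factor that activates many antioxidant genes and that the Keap1 protein marks for degradation. Its ratio was -0.25 and -0.23 at E9.5, then -0.05 and 0.01 at E11.5. The E9.5 mean of -0.24 ± 0.01, or 84.9% of wild type, was called (limma adjusted p = 0.00783), the closest replicates of any called member. The E11.5 mean was -0.02 ± 0.04 (adjusted p = 0.900), and the difference between the stages was not called (adjusted p = 0.121). A dimmer probe had -0.12 and -0.04, and a further one, matched to a separate cDNA record, had -0.21 and -0.22.

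Keap1, Nqo1 and Hmox1 were not called at a stage. Keap1 had stage means of -0.04 and -0.07. Nqo1, a quinone reductase and standard Nrf2 target, had 0.06 and -0.06. Hmox1, which breaks down haem, had 0.02 and 0.08, with ratios of 0.04, 0.00, 0.20 and -0.05 on the 4 arrays.

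Of the protein disulfide isomerases among the members, which form and rearrange disulfides in the endoplasmic reticulum, none was called. Pdia2, outside the members, was called lower at both stages and is given below. Pdia4 was above 0 on every array, at 0.15 and 0.07 at E9.5, then 0.07 and 0.06 at E11.5, which are small values (limma adjusted p = 0.219 and 0.648). Pdia3, described above, had means of 0.13 ± 0.66 (adjusted p = 0.128) and -0.05 ± 0.63 (adjusted p = 0.704). Pdia6 had -0.07 and 0.05 at E9.5 (mean -0.01 ± 0.08, adjusted p = 0.964) and -0.16 and 0.20 at E11.5 (mean 0.02 ± 0.25, adjusted p = 0.897). Its 3 dimmer probes had E9.5 means of -0.02, 0.25 and -0.56, the lowest of them matched to a separate cDNA record.

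**Figure D3:**
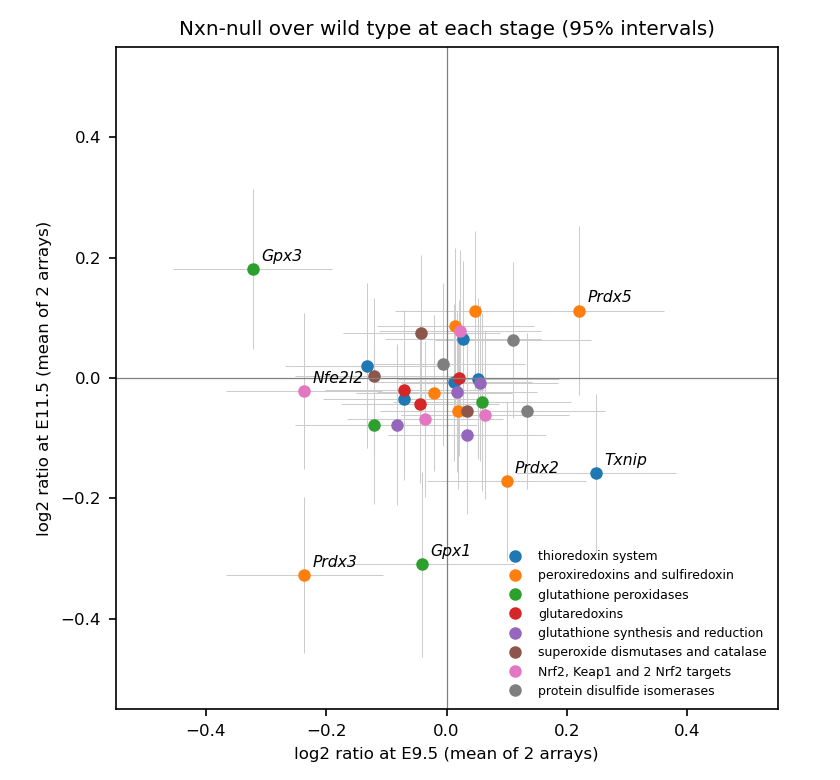
Mean log2 ratio of Nxn-null over wild type at E9.5 (horizontal axis) and at E11.5 (vertical axis) for the 34 tested redox genes. Colours mark the role. Grey lines are 95% intervals from limma and cover only the spread between arrays left after the dye term. Named genes were called at a stage or in the difference between stages; Prdx3 lies at -0.24 and -0.33, Gpx3 at -0.32 and 0.18, and Txnip at 0.25 and -0.16.

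The ratio differed between the stages in 3 members. Gpx3 had the higher ratio at E11.5, 1 member where 8.32% of all genes were called in that direction. Txnip and Prdx2 had the lower ratio at E11.5, 2 members where 5.23% of all genes were called. None of the 3 was called in this test without the dye term. Embryo sex differed between the genotypes at E11.5, so genotype and sex cannot be told apart in these differences.

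The level of 17 redox genes changed between the stages. In a limma test of E11.5 over E9.5 with the 2 genotypes as replicates, 6 members rose and 11 fell, where 21.0% of all genes rose and 21.0% fell. The members' median change was -0.09 on the log2 scale, beside -0.02 for all genes. Effects that both channels of an array share do not enter the error of this test, so its p-values are too small. Without E9.5 replicate 1 it called 11 members, and without E11.5 replicate 2 also 11. Each value below is the change of a gene's own probe, and levels are not compared between genes.

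By the brightest probe, Srxn1 had the lowest change of any member in the mean of both genotypes, although Gpx3 was lower in wild type (-0.68 against -0.55). The log2 level of Srxn1 in the 4 wild-type channels was 10.20 and 10.22 at E9.5, then 9.61 and 9.71 at E11.5. In Nxn-null channels it was 10.25 and 10.20, and 9.57 and 9.64. The stages did not overlap in either genotype, and the mean change was -0.58 ± 0.06 (SE, n = 2 genotypes, limma adjusted p = 0.009). With the mean of all kept probes it was -0.39. Prdx4 was then lower, at -0.56, as were Txnrd3, Txnrd1, Gsr and Gpx3 (-0.43). Of the 4 reductases 3 fell as well, Txnrd3 by 0.52 (adjusted p = 0.0099), Txnrd1 by 0.46 (adjusted p = 0.0122) and Gsr by 0.40 (adjusted p = 0.019) on the log2 scale, while Txnrd2 had a change of 0.12 (adjusted p = 0.180). The 5 peroxiredoxin and sulfiredoxin genes that fell were Srxn1, Prdx3 (-0.35), Prdx4 (-0.34), Prdx1 (-0.33) and Prdx6 (-0.33). Txn1 (-0.33), Nfe2l2 (-0.33) and Cat (-0.25) made up the rest of the 11.

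Gpx1 rose by the most in the mean of both genotypes, although Txnip rose more in wild type and also in the mean without E11.5 replicate 1 (0.67 against 0.58). Its log2 level in wild-type channels was 15.55 and 15.27 at E9.5, then 16.21 and 16.14 at E11.5, and in Nxn-null channels 15.29 and 15.44, and 15.93 and 15.80. The change was 0.76 in wild type and 0.50 in Nxn-null RNA, a mean of 0.63 ± 0.09 (SE, limma adjusted p = 0.0141). Of the 16 red cell markers 13 rose as well, with a median of 1.19, and their part in the Gpx1 change was not tested.

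Txnip rose by 0.81 in wild type and 0.41 in Nxn-null RNA (mean 0.61 ± 0.12, limma adjusted p = 0.0258). The gap between these changes is the same quantity as the difference between the stage ratios given above. A dimmer Txnip probe rose by 0.34 and 0.05. Keap1 rose by 0.53 and 0.50 (mean 0.51, adjusted p = 0.0103), and Gss by 0.44 and 0.38 (mean 0.41, adjusted p = 0.0149), each by nearly the same amount in both genotypes. Hmox1 rose by 0.39 and 0.45 (mean 0.42, adjusted p = 0.0141), beside macrophage markers of which 7 of 7 rose with a median of 1.44, and their part in the Hmox1 change was not tested. Gpx2 rose by 0.23 (adjusted p = 0.0476).

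**Figure D4:**
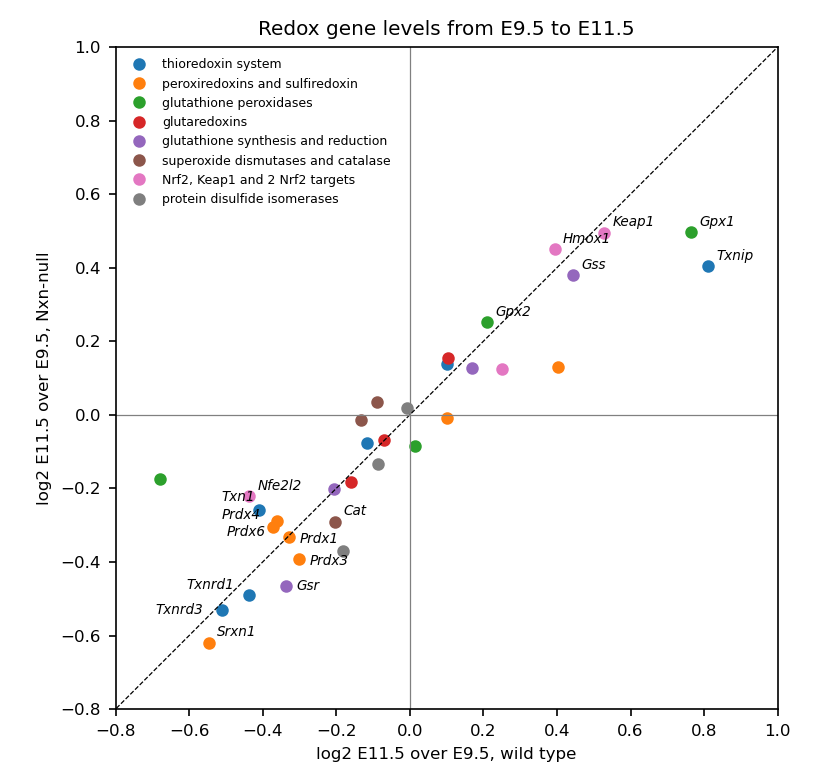
Log2 change of level from E9.5 to E11.5 in wild-type (horizontal axis) and Nxn-null RNA (vertical axis) for the 34 tested redox genes, coloured by role; the dashed line marks equal change and names are given where the mean of both genotypes was called. Srxn1, Txnrd3 and Txnrd1 lie at the lower left and Keap1, Gpx1 and Txnip at the upper right, the last of these at 0.81 and 0.41.

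Promoters of the members were read because several genes known as Nrf2 targets, Srxn1 and Txnrd1 among them, fell between the stages. Other Nrf2 targets did not fall: Hmox1 rose (0.42) and Nqo1 was not called (0.19). The sequences come from a RefSeq table of GRCm38.p6 that holds 250 bases before and 50 bases after each start, and 31 of the 36 members were in it. The letters searched were TGACNNNGC, the core of the antioxidant response element to which Nrf2 binds, on both strands. At least 1 match was found for 7 of the 31 members (22.6%), where 14.0% of the 27025 genes in the table held one. The stretches shown are those of the 6 members with a match before the start, printed along the strand of the gene with the match in capitals. Txnrd1, Prdx1 and Nfe2l2 fell between the stages, and Gclm, Pdia3 and Sod1 were not called.
Txnrd1, chr10:82859094-82859142, plus strand: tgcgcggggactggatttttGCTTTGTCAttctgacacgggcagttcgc
Prdx1, chr4:116685446-116685494, plus strand: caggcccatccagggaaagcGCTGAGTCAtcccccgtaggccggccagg
Nfe2l2, chr2:75704875-75704913, minus strand: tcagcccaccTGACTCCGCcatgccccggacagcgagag
Gclm, chr3:122245403-122245451, plus strand: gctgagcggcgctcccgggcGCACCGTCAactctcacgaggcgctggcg
Pdia3, chr2:121413845-121413893, plus strand: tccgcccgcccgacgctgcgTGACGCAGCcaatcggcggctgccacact
Sod1, chr16:90220686-90220734, plus strand: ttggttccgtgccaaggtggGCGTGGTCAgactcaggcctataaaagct
The match lies on the gene's own strand in Nfe2l2 and Pdia3 and on the opposite strand in the other 4. In Srxn1 the match lay after the start and is not printed. A match describes letters in a window and does not show binding.

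Of the 7 tested members with a match, 0 were higher and 1 was lower (Nfe2l2) at E9.5, and none was called at E11.5. Between the stages none of the 7 rose and 4 fell, namely Srxn1, Txnrd1, Prdx1 and Nfe2l2, with a median change of -0.33, where 21.0% of all genes fell. Srxn1 and Txnrd1 were among the genes that prompted the search, so they add nothing to this count. The falls of Prdx1 and Nfe2l2 were also known by then, so the count is no separate support. Of the 23 tested members whose window held no match, 2 were higher and 2 lower at E9.5, 2 were lower at E11.5, and 5 rose and 5 fell between the stages, with a median change of -0.03. The difference between these groups was not tested.

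Other genes of the same pathways were taken from lists by function. Of 21 tested relatives with a thioredoxin fold (28 listed), none was higher at E9.5 and 3 (14.3%) were lower, a share close to the 14.8% of all genes. These were Txnl4a, a spliceosome protein (-0.33), Erp29, a chaperone of the endoplasmic reticulum (-0.29), and Pdia2, a disulfide isomerase known from pancreas (-0.29). At E11.5 Pdia2 alone was lower (-0.43), and it was below 0 on all 4 arrays, at -0.29, -0.28, -0.55 and -0.30. Pdia2 was dim at E9.5, well above background in only 1 of the 2 Nxn-null channels. Over 11 alternatives its E9.5 ratio ran from -0.97 to -0.28, and 5 of them kept the call. The list medians were -0.06 and 0.02.

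Several enzymes that use glutathione had ratios beyond the range of the members. Of 34 tested (40 listed), 3 (8.82%) were higher and 10 (29.4%) lower at E9.5, where 9.88% and 14.8% of all genes were. At E11.5 none was higher and 3 (8.82%) were lower, where 5.64% of all genes were lower. The largest E9.5 ratios were those of the microsomal transferase Mgst2 (-1.08), the cytosolic transferases Gstm1 (-0.84), Gstm3 (-0.74) and Gsta3 (-0.60), the microsomal Mgst3 (-0.54) and the transferase Gstt3 (-0.45). These sizes depended on the processing: over the alternatives Mgst2 ran from -1.67 to -1.05 and Gsta3 from -1.32 to -0.58. At E11.5, Mgst2, Gstm1, Gstm3 and Gstt3 stood at -0.06, 0.01, 0.03 and 0.08, and for each of these 4 the difference between the stages was called (limma adjusted p from 3.26e-08 to 1.99e-04). The yolk sac markers, 11 of 12 lower at E9.5, then 4 of 12 at E11.5, moved in the same way, and their part was not tested. Mgst3 was as low at E11.5 (-0.56) as at E9.5. Gsto1, an omega-class transferase, had -0.35 at E11.5, and Glo1, which detoxifies methylglyoxal with glutathione, had 0.04 at E9.5, then -0.60 at E11.5.

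Of 28 tested genes of NADPH supply and Nrf2 targets (32 listed), 2 (7.14%) were higher and 4 (14.3%) lower at E9.5, and 1 (3.57%) was higher and 2 (7.14%) were lower at E11.5, all close to the shares of all genes (9.88%, 14.8%, 3.67% and 5.64%). Nnt, the mitochondrial transhydrogenase that makes NADPH and in which the C57BL/6J strain is known to carry a deletion, was higher at both stages. Its ratio was 0.53 and 0.15 at E9.5, then 0.47 and 0.22 at E11.5, all 4 above 0 (means 0.34 and 0.35, limma adjusted p = 3.93e-04 and 7.43e-04). Cbr3, a carbonyl reductase, was higher at E9.5 (0.21). The lower genes at E9.5 were the transporters Abcc2 (-0.76) and Abcc4 (-0.34), Blvrb, a flavin and biliverdin reductase abundant in red cells (-0.33), and Maff, a small partner of Nrf2 (-0.31). The E9.5 ratio of Abcc2 ran from -2.34 to -0.57 over 11 alternatives. Blvrb was lower at E11.5 too (-0.33), where red cell markers were also low, and their part was not tested. Me1, the malic enzyme, was the other lower gene at E11.5 (-0.20).

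Of 25 other antioxidant genes tested (27 listed), none was higher, 5 (20%) were lower at E9.5 and 2 (8%) at E11.5, where 14.8% and 5.64% of all genes were lower. Selenop, the secreted selenium carrier, had -1.20 at E9.5, then -0.13 at E11.5. The metallothioneins Mt2 and Mt1, which bind zinc and copper, had -0.88 and -0.78 at E9.5 and were lower at E11.5 as well (-0.57 and -0.34). Ero1b, an oxidase of the endoplasmic reticulum (-0.37), and Ccs, the copper chaperone of Sod1 (-0.20), were the others at E9.5. The part of the yolk sac markers in these values was not tested. Of the 36 stage ratios called in these 4 lists, those of Mgst2, Mt1 and Selenop at E9.5 were called under all 12 alternatives, and 8 of the 36 were called without the dye term.

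**Figure D5:**
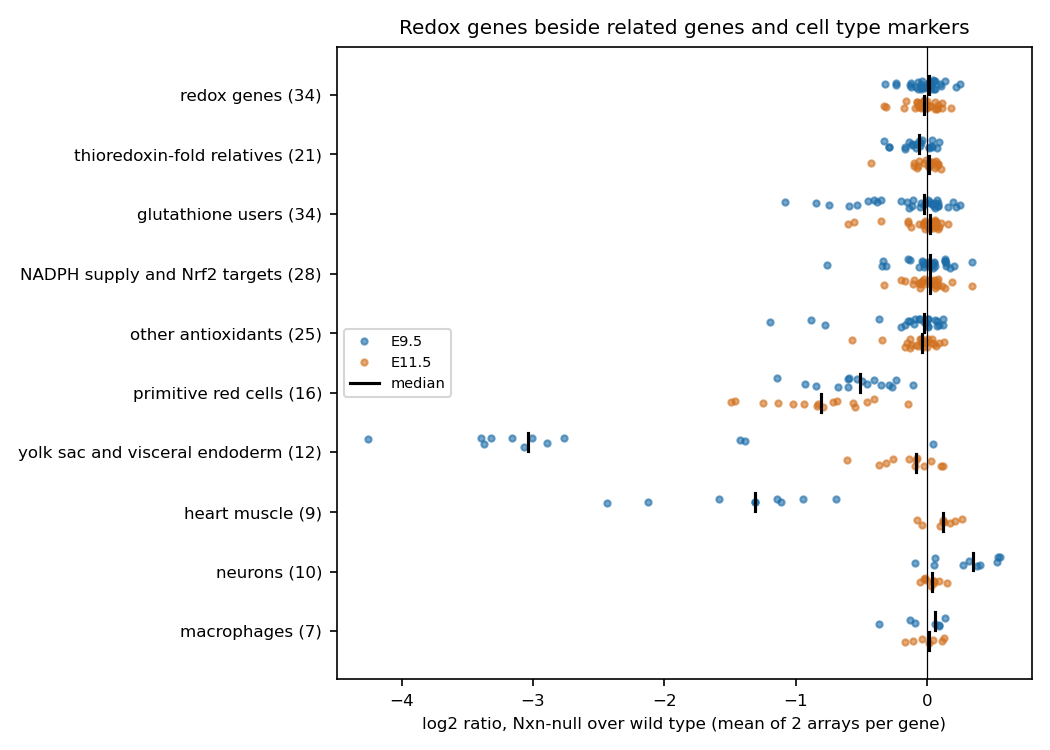
Mean log2 ratio of Nxn-null over wild type (horizontal axis) for each tested gene of the redox members, of 4 related lists and of 5 marker lists, with E9.5 in blue, E11.5 in orange and a black bar at each median; the number of tested genes follows each name. The redox members stay between -0.33 and 0.25, whereas yolk sac markers have a median of -3.04 and red cell markers of -0.51 at E9.5.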

How the data were processed

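Per the file headers, the deposited scanner files hold linear spot intensity and local background for both channels, and a log10 ratio of red over green, written by Agilent Feature Extraction (9.1.3.1 in the headers, 9.5.3.1 in the submitters' processing notes). The deposited value table equals that log10 ratio within 1e-04, as Nxn-null over wild type, in at least 99.99% of probes where it is not 0; its column medians were -0.0136, 0.0408, -0.0347 and 0.0210. Here intensities were background-corrected by normexp (offset 50) and normalized by loess within arrays in limma 3.58.1 (R 4.3.3, jsonlite 2.0.0 and version 1.17.8 of data.table). Probes with an outlier mark on any array (293) were left out, and 24994 of 41174 gene probes were kept as well above background in a genotype on both arrays of a stage. Between 48.1% and 70.1% of gene probes were well above background per channel, and the number of arrays limits precision.

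Stage ratios were fitted over 17161 genes with stage and dye terms (1 residual degree of freedom, prior 18.4); array spread here is how far the dye difference at E9.5 departs from that at E11.5. Ratios over both stages and levels between stages were fitted on averages of dye-swapped arrays, the latter after Aquantile (1 residual degree of freedom each; prior 2.85 for the former). P-values were adjusted by Benjamini-Hochberg at 0.05. The fits were also run on data simulated with independent noise at the fitted spread. That run cannot show how calls depend on loess, on the dye term or on shared extracts. Gene names were updated with a RefSeq table of GRCm38.p6. Figures used matplotlib 3.10.9 under Python 3.11.15.

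All 36 members are accounted for by role. Full values are given for members called at a stage or between stages, members at least 1.2-fold apart with both arrays in that direction, and members whose probes disagree in sign; of each pathway list, up to 6 called genes with the largest ratios; between stages, the 6 largest rises and falls, the other calls being named afterwards. The members and lists were chosen with earlier results of these data known. All arrays lay on 1 slide, so no batch could be fitted. Alternatives covered background correction, normalization, filters, choice of probe, moderation, the dye term and each array left out.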

Additional observations from a re-analysis of the deposited data

Results flagged for a closer look

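Gpx3, Prdx2 and Txnip stood out because the test of the difference itself found that their ratio was not the same at both stages. The ratio at E11.5 minus that at E9.5 was 0.50 for Gpx3, -0.27 for Prdx2 and -0.41 for Txnip on the log2 scale. The sign of the stage mean changed between the stages in all 3 genes, and in Gpx3 both arrays of a stage lay on the same side of 0. For Prdx2 and Txnip the arrays of a stage differed in sign at E9.5 and at E11.5, respectively.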

How the results depend on the processing

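The counts of called redox genes depended on the dye term and on loess. The 5 calls at E9.5, the 2 at E11.5 and the 3 of the difference between stages each became 0 with the scanner's log ratio, with median centring and without the dye term. Each was also 0 (range 0 to 0) when any array was left out, in fits that then have no dye term. With a normexp offset of 10, and likewise with no filter on dim probes, the counts were 4 at E9.5 (Prdx5 lost), 1 at E11.5 (Gpx1 lost) and 2 for the difference (Prdx2 lost). Over all genes the count at E9.5 went from 4232 to 459 without the dye term, and at E11.5 from 1597 to 28, so the losses were not confined to the members. The count over both stages was 0 under every alternative run, in a test that did not call Nxn in the main fit either. Between the stages 17 members were called, and 11 to 15 with an array left out; Gpx1, Gss, Hmox1, Keap1, Srxn1, Txnrd1 and Txnrd3 were called under all 9 alternatives. Prdx5 at E9.5 ranged from -0.028 to 0.47 with an array left out; no other called ratio or change of a member turned its sign under an alternative. Nor did any of the 36 called stage ratios of the related lists, for which these alternatives were chosen after seeing the data. Beyond these constructions the cause of each loss was not tested. No slide or scan block was run, because all arrays shared 1 slide and scan. A ratio near 0 at this number of arrays does not exclude a change within that gene's own interval. The printed limits are the extremes of these intervals over the members, and they hold only for the fit with its dye term. They are not limits of detection, because that fit called smaller E9.5 ratios, such as Nfe2l2 and Prdx3, both at -0.24.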

Other observations

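Between the stages, the related genes outside the members moved in both directions, where 21.0% of all genes rose and 21.0% fell. Of 21 thioredoxin-fold relatives 5 rose and 4 fell, with a median log2 change of -0.13. Of 34 glutathione users 10 rose and 3 fell, with a median of 0.07; of the 34 members 6 rose and 11 fell. Of 28 genes of NADPH supply and Nrf2 targets 8 rose and 7 fell, and of 25 other antioxidant genes 6 rose and 5 fell. Nxn itself changed by 0.11 in wild-type and -0.23 in Nxn-null RNA and was not called (limma adjusted p = 0.680).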
